A study of Rattus norvegicus with 9 samples.

Results

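The 9 genes described here encode 7 chemokines (Ccl2, Ccl7, Cxcl1, Cxcl10, Cxcl12, Cxcl16 and Cx3cl1) and 2 leukocyte adhesion molecules (Icam1 and Vcam1). They were chosen by gene symbol, and 11 of the 20826 probe sets annotated to exactly 1 gene belong to them, 3 to Cxcl12 and 1 to each other gene. Across the array such probe sets cover 14217 genes. Kidney RNA came from 9 Sprague-Dawley rats, an outbred laboratory stock, bought at 8 weeks of age and acclimated for 1 week. All rats were injected intraperitoneally every day for 7 days, either with saline vehicle (0 mg/kg) or with colistin methanesulfonate sodium (CMS) at 25 or 50 mg/kg, and the doses are named vehicle, CMS25 and CMS50 below. CMS is the prodrug of colistin, a polymyxin antibiotic whose use is limited by kidney toxicity. Each dose had 3 rats and 1 Affymetrix 3′ expression array per rat, which the labels call biological replicates. The labels record no lesion in vehicle kidneys, basophilic and dilated tubules at CMS25, and tubular necrosis, degeneration and casts at CMS50. RNA was taken from the whole right kidney, so a change in the number of cells of a type and a change in RNA per cell cannot be told apart.

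Chemokines are small secreted or membrane-bound proteins that bind G protein-coupled receptors on leukocytes and direct their migration along concentration gradients. Adhesion molecules on the endothelium then bind leukocyte integrins, which arrests rolling cells and lets them cross the vessel wall. In the kidney these genes are transcribed by injured tubular epithelium as well as by endothelium and resident macrophages, and several of them are classical targets of the transcription factor NF-kB or of interferon signalling.

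The start regions of 6 members are shown because their letters can be set beside the array values of genes that were higher, lower or not called at CMS50. Sequences are RefSeq windows of the rat assembly GRCr8, from 250 bases before to 50 bases after the annotated gene start, written 5′ to 3′ in the direction of the gene. The table of such windows held 8 of the 9 members, and Ccl2 was not matched. Capitals mark matches, on either strand, to 4 sets of letters: GGNNNTTCC, a loose form of the NF-kB site, 2 copies of GAAA with any 2 bases between them, the core of the interferon-stimulated response element, TGANTCA, the AP-1 site, and TATAAA, the TATA box. The Icam1 window lies at chr8:27829595-27829894 on the plus strand, that of Cxcl1 at chr14:17479272-17479571 on the minus strand, and that of Cxcl10 at chr14:15988816-15989115 on the plus strand. The Cxcl16 window lies at chr10:55669901-55670200 on the minus strand, that of Cxcl12 at chr4:152060531-152060830 on the plus strand, and that of Vcam1 at chr2:206742734-206743033 on the minus strand.
Icam1: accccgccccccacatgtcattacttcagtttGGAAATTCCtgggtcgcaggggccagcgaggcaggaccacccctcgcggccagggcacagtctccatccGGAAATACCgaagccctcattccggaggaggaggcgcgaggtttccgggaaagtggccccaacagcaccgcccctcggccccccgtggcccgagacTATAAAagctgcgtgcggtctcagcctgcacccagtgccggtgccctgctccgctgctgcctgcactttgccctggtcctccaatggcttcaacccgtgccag
Cxcl1: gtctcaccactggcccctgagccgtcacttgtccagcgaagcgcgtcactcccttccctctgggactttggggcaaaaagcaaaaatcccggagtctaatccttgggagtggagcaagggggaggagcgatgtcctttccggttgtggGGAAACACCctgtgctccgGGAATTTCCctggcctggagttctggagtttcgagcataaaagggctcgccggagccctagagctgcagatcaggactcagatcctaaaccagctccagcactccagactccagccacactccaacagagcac
Cxcl10: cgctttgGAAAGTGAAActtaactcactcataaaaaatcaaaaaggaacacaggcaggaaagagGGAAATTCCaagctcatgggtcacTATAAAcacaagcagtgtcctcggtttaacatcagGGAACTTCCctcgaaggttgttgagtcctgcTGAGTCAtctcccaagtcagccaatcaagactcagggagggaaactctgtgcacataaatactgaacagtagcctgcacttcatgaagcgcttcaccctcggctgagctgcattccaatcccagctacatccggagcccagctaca
Cxcl16: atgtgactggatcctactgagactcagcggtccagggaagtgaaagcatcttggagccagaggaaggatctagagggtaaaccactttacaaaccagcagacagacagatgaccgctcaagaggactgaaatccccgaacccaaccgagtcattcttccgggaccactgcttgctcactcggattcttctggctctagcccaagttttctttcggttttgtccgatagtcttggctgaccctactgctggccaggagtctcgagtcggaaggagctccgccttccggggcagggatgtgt
Cxcl12: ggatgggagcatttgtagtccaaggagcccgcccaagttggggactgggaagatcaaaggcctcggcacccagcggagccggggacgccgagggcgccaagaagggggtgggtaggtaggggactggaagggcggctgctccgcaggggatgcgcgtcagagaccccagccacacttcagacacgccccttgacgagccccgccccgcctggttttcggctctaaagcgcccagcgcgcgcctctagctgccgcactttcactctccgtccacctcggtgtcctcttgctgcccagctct
Vcam1: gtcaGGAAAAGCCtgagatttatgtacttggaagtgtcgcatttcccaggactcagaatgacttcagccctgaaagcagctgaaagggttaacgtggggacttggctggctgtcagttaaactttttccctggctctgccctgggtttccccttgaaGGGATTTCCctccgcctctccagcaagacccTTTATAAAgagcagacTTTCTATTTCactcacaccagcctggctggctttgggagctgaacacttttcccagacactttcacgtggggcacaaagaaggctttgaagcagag

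The loose NF-kB letters were found in 6 of the 8 windows, those of Ccl7, Cxcl1, Cxcl10, Cx3cl1, Icam1 and Vcam1, and in 18.3% of 27456 rat promoters of the same length. In Cxcl1 the match GGAATTTCC began 83 bases before the start, in Icam1 GGAAATTCC began 218 bases before it, and in Vcam1 GGGATTTCC began 93 bases before it. Cxcl10 held both GGAAATTCC and GGAACTTCC, together with the interferon response core GAAAGTGAAA 243 bases and an AP-1 match TGAGTCA 96 bases before the start. The interferon response core was found in 2 of the 8 windows, Cxcl10 and Vcam1, against 3.77% of all promoters. AP-1 letters were found in 2 windows, Cxcl10 and Ccl7, against 7.33%, and TATAAA in 5 windows against 14.3%. The matches of different motifs did not overlap each other in these windows, and the 2 TATAAA matches of Vcam1 overlapped on opposite strands. None of the 4 sets of letters occurred in the windows of Cxcl12 and Cxcl16, which says only that these letters are not in these windows. These matches describe the sequence and do not show binding.

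A few facts of the whole set of arrays bear on the values. Over all 31099 probe sets, Pearson correlations between arrays ran from 0.967 to 0.994. Over the narrower set of 10337 genes tested CMS50 replicate 3 lay nearer to the vehicle mean (r = 0.9745) than CMS50 replicates 1 and 2 did (0.9387 and 0.9327), so changes at CMS50 are also given without it. The 3′ to 5′ log2 difference of the beta-actin control probe sets, a reading of RNA quality, was 3.58 ± 0.09 (SD, n = 3) at CMS50 and 2.98 ± 0.16 in vehicle, and for GAPDH it was 0.82 ± 0.06 and 0.54 ± 0.03. In an exact permutation test (two-sided) p was 0.1 for each, which is the lowest value 3 against 3 arrays can reach. This reading moves with dose beside every difference below, and its part in them was not tested. Kidney identity was read from 9 proximal tubule markers, all of which passed the intensity minimum.

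Values are log2 intensities, and each group value is a mean ± SD with n = 3. The fit across genes used the probe set of each gene with the highest mean and a minimum mean log2 value of 5 over the 9 arrays, which left 10337 genes and 7 of the 9 members. Ccl7 and Cxcl1 fell below it, and Ccl2 passed only through its CMS50 arrays, so the members that passed are not a neutral sample of the family. A gene was called at a Benjamini-Hochberg adjusted p under 0.05.

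**Figure D1:**
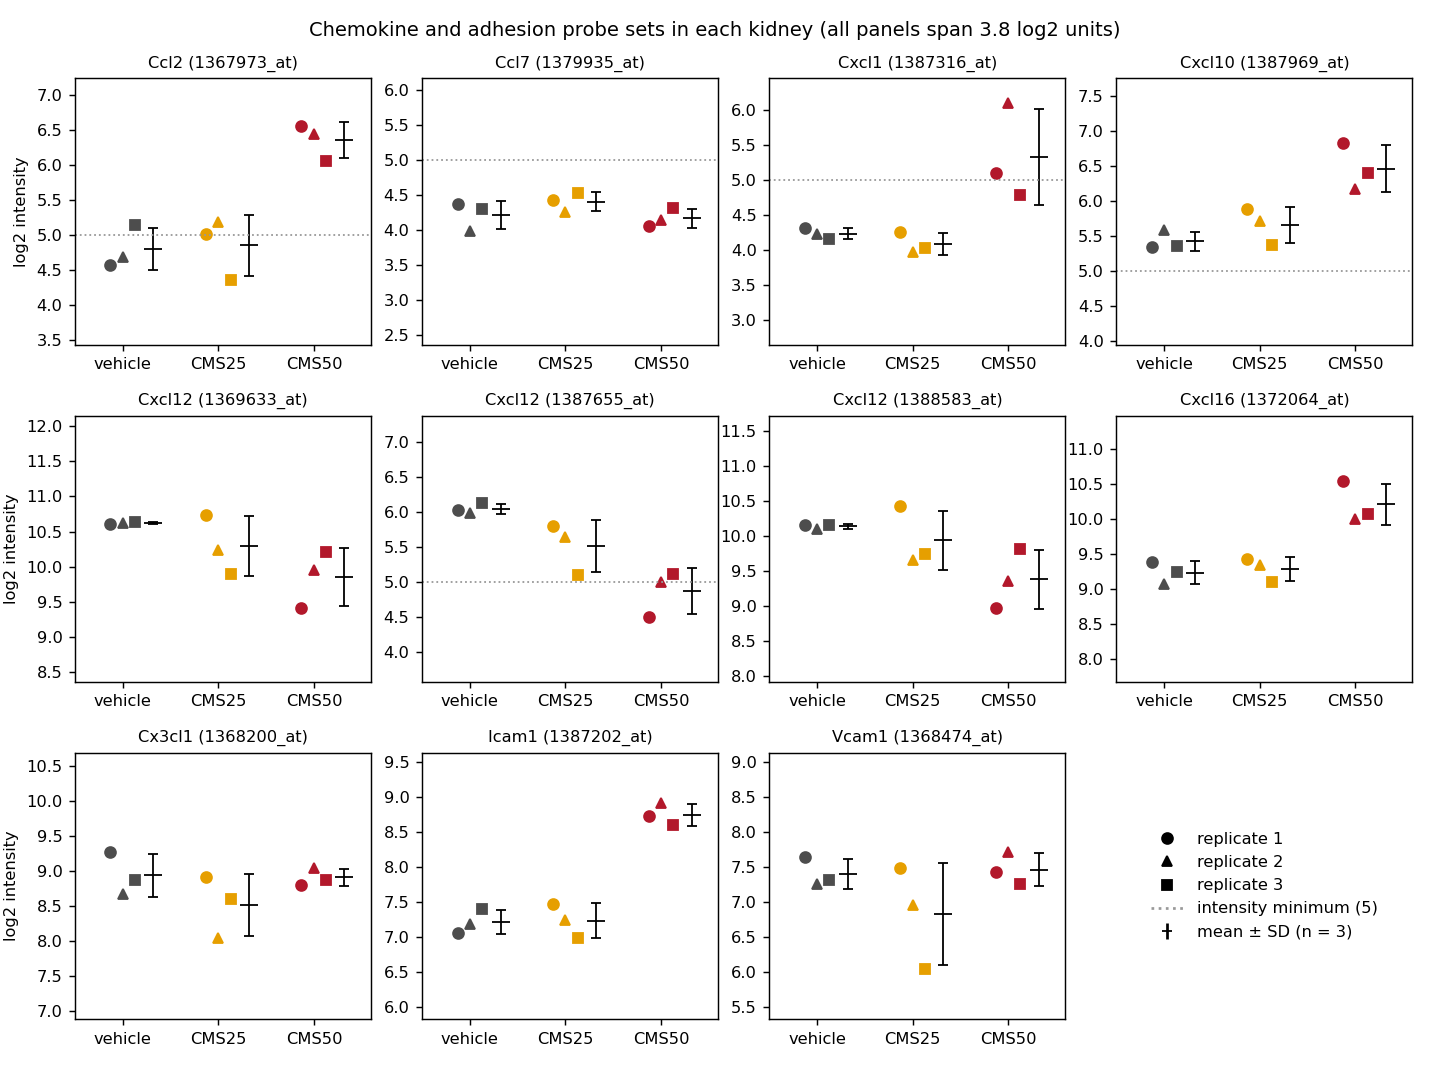
Log2 intensity of the 11 probe sets of the 9 genes in each of the 9 kidneys (symbols, by replicate), with group mean ± SD (n = 3) as bars; the dotted line is the intensity minimum of 5. The CMS50 arrays of Ccl2, Cxcl1, Cxcl10, Cxcl16 and Icam1 lie above every vehicle and CMS25 array. Those of the 3 Cxcl12 probe sets lie below every vehicle array of the same probe set.

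At CMS50 the kidneys carried more RNA of Ccl2, Cxcl10, Cxcl16 and Icam1 than vehicle kidneys and less of Cxcl12, whereas Cx3cl1 and Vcam1 did not pass the test. Icam1 was 2.89-fold, Ccl2 2.93-fold, Cxcl10 2.05-fold and Cxcl16 1.96-fold higher, and Cxcl12 was 1.70-fold lower. Thus of the 9 members 7 were tested, and 4 of these were called higher and 1 lower. Ccl2, 1 of the 4, passed the minimum only through its CMS50 arrays. Its place in this count and in the median below is therefore not evidence of a rise. In this comparison 31.1% of the 10337 genes tested were called, 19.6% higher and 11.4% lower. The arrays of those 4 genes lay wholly above vehicle and those of the fifth wholly below, which was the case for 30.6% and 19.1% of all genes. The median change was 0.97 on the log2 scale over the 7 members tested, Ccl2 included, and 0.05 over all genes. With no intensity minimum all 9 members were tested, 5 were called higher and 1 lower, and 22.8% of 14217 genes were called, 14.6% higher and 8.17% lower.

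Of the monocyte attractants Ccl2 and Ccl7, both ligands of the receptor CCR2, Ccl2 rose at CMS50 and Ccl7 was dim at every dose. Ccl2 (probe set 1367973_at) read 4.56, 4.69 and 5.14 in the vehicle arrays, 5.01, 5.19 and 4.35 at CMS25, and 6.55, 6.44 and 6.06 at CMS50. All 3 CMS50 arrays were higher than the other 6, while vehicle and CMS25 overlapped and had means under 5. The log2 change against vehicle was 1.55 (SE 0.24, 95% interval 1.02 to 2.08, adjusted p = 0.0031) and 1.70 without CMS50 replicate 3. Because the vehicle and CMS25 levels are dim, the sizes of the change and of the fold are approximate. Ccl7 (1379935_at) read 4.37, 3.99 and 4.31 in vehicle, 4.44, 4.26 and 4.53 at CMS25, and 4.06, 4.15 and 4.32 at CMS50. These 9 values overlapped between all doses and were dim, with 31.8% of probe sets lower in mean. With no intensity minimum the Ccl7 difference at CMS50 was -0.05 (95% interval -0.33 to 0.24, adjusted p = 0.832). Such a dim probe set gives only a weak limit on Ccl7 RNA.

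Cxcl1, which recruits neutrophils through CXCR2, was near the dim end in untreated kidneys. It (1387316_at) read 4.31, 4.23 and 4.15 in vehicle, 4.26, 3.96 and 4.02 at CMS25, and 5.10, 6.10 and 4.78 at CMS50. The CMS50 arrays lay above the other 6 and were spread most widely, with replicate 2 highest. Its mean over the 9 arrays was 4.55, below the minimum, so it was tested only in the fit with no minimum. There its log2 change was 1.10 (SE 0.28, adjusted p = 0.0208), falling to 0.71 without CMS50 replicate 2. The call was lost without vehicle replicate 2 (adjusted p = 0.0609) or vehicle replicate 3 (adjusted p = 0.0626).

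Cxcl10, an interferon-inducible attractant of T cells and natural killer cells through CXCR3, rose at CMS50. Its probe set 1387969_at read 5.35, 5.58 and 5.35 in vehicle, 5.88, 5.72 and 5.38 at CMS25, and 6.83, 6.17 and 6.39 at CMS50. The CMS50 arrays did not overlap those of either other dose, and CMS25 overlapped vehicle. The change was 1.04 (SE 0.18, 95% interval 0.63 to 1.45, adjusted p = 0.00477), and 1.07 without CMS50 replicate 3.

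Cxcl12, the ligand of CXCR4 that retains haematopoietic cells in their niches and is made by stromal and tubular cells, was the member that fell. Its brightest probe set, 1369633_at, read 10.61, 10.62 and 10.64 in vehicle, 10.74, 10.24 and 9.89 at CMS25, and 9.40, 9.94 and 10.21 at CMS50. Vehicle arrays were almost equal (SD 0.013), every CMS50 array lay below them, and the CMS25 arrays ran from above vehicle into the CMS50 range. The change was -0.77 (SE 0.24, 95% interval -1.3 to -0.24, adjusted p = 0.0358). The call was lost in 5 of 9 leave-outs, without vehicle replicate 1, 2 or 3 and without CMS50 replicate 1 or 2 (adjusted p from 0.0768 to 0.117), and the change was -0.95 without CMS50 replicate 3.

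The other Cxcl12 probe sets also read lower at CMS50. Probe set 1388583_at read 10.16, 10.09 and 10.15 in vehicle, 10.42, 9.65 and 9.74 at CMS25, and 8.98, 9.35 and 9.81 at CMS50. Probe set 1387655_at, which is dimmer, read 6.03, 5.99 and 6.13, then 5.81, 5.65 and 5.10, then 4.50, 5.0 and 5.12 in the same order. Here CMS25 lay wholly below vehicle, but its CMS25 difference of -0.53 (SE 0.20) had an adjusted p of 0.742. Tested probe set by probe set, the CMS50 changes were -0.77 (adjusted p = 0.036), -0.75 (0.0397) and -1.18 (0.00437), so the 3 readings of 1 gene had the same sign and differed in size.

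The transmembrane chemokines Cxcl16 and Cx3cl1 are held on the cell surface on a mucin-like stalk and can be shed, and 1 of them, Cxcl16, rose at CMS50. Cxcl16 (1372064_at), the CXCR6 ligand that also acts as a scavenger receptor, read 9.39, 9.07 and 9.24 in vehicle, 9.43, 9.34 and 9.10 at CMS25, and 10.54, 10.01 and 10.08 at CMS50. The 3 CMS50 arrays stood above the other 6, which overlapped each other. The change was 0.97 (SE 0.16, 95% interval 0.62 to 1.33, adjusted p = 0.00364), and 1.04 without CMS50 replicate 3. Cx3cl1 (1368200_at), or fractalkine, the ligand of CX3CR1 on monocytes and renal phagocytes, read 9.26, 8.66 and 8.87 in vehicle, 8.91, 8.04 and 8.60 at CMS25, and 8.80, 9.04 and 8.87 at CMS50. All doses overlapped, and the CMS50 difference was -0.03 (95% interval -0.53 to 0.47, adjusted p = 0.931). The interval leaves room for a change of either sign, and whether it differs from the change of Cxcl16 was not tested.

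Of the adhesion molecules, Icam1, the endothelial and epithelial ligand of the integrins LFA-1 and Mac-1, rose at CMS50. Icam1 (1387202_at) read 7.06, 7.18 and 7.39 in vehicle, 7.47, 7.24 and 6.98 at CMS25, and 8.72, 8.91 and 8.59 at CMS50. The CMS50 arrays stood well apart above every other array, and the vehicle and CMS25 arrays were interleaved. Its change of 1.53 (SE 0.15, 95% interval 1.20 to 1.86) had the smallest adjusted p of the members (0.000767) and was 1.61 without CMS50 replicate 3. Vcam1 (1368474_at), the ligand of the integrin VLA-4 on monocytes and lymphocytes, read 7.65, 7.26 and 7.31 in vehicle, 7.48, 6.96 and 6.04 at CMS25, and 7.43, 7.71 and 7.26 at CMS50. Vehicle and CMS50 overlapped, and CMS25 replicate 3 was the lowest of the 9. The CMS50 difference was 0.06 (SE 0.31, 95% interval -0.64 to 0.76, adjusted p = 0.899), and that interval leaves room for a change of either sign.

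**Figure D2:**
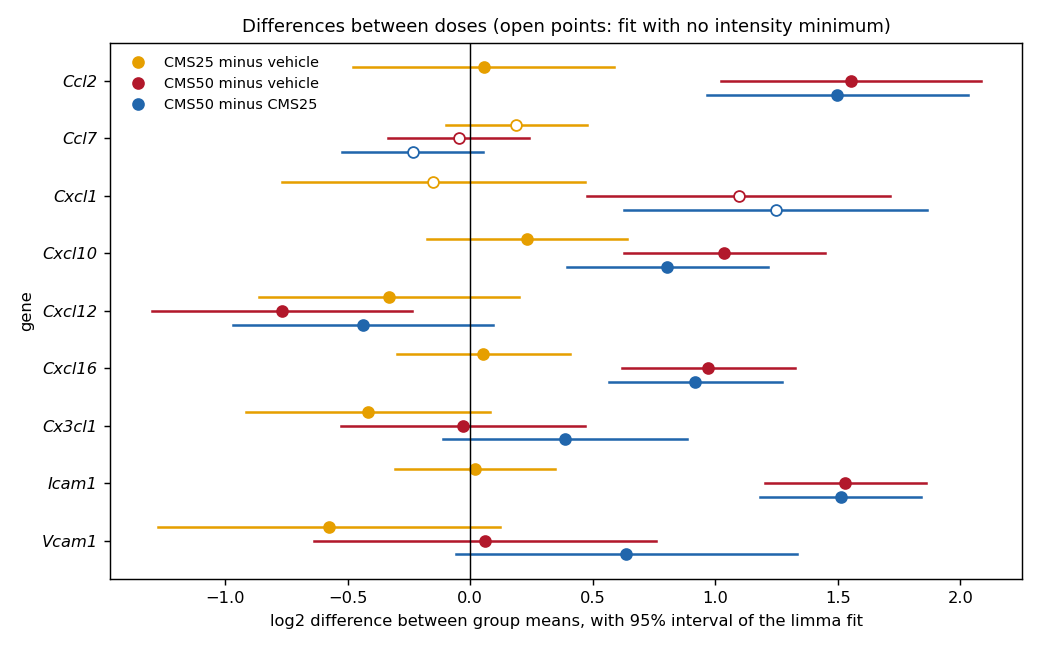
Log2 difference between group means for each gene (points) with the 95% interval of the limma fit (lines) in the 3 comparisons; open points mark Ccl7 and Cxcl1, taken from the fit with no intensity minimum. At CMS25 every interval includes 0, whereas the intervals of Ccl2, Cxcl1, Cxcl10, Cxcl16 and Icam1 lie above 0 in both comparisons of CMS50.

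At CMS25 none of the 7 members tested differed from vehicle by the test, in a comparison in which limma called 0 of 10337 genes (0%; smallest adjusted p = 0.523, 604 genes at an unadjusted p under 0.05). None of the 7 had an unadjusted 95% interval that excluded 0, and for the brightest probe set of each, the CMS25 arrays overlapped vehicle, whereas they lay wholly above it for 4.45% and wholly below it for 7.65% of all genes. Of the probe sets not used for the gene, Cxcl12 1387655_at lay wholly below vehicle, as given above. The changes of Ccl2, Cxcl16 and Icam1 were 0.05, 0.05 and 0.02, with 95% intervals of -0.48 to 0.59, -0.30 to 0.41 and -0.31 to 0.35. Cxcl10 was at 0.23 (95% interval -0.18 to 0.64), Cxcl12 at -0.33 (-0.86 to 0.20), Cx3cl1 at -0.42 (-0.92 to 0.08) and Vcam1 at -0.58 (-1.27 to 0.12), all with adjusted p of at least 0.858. Among the CMS25 arrays, replicate 3 was lowest for 6 of the 7 members and replicate 1 highest for 6 of them. For Ccl2, Icam1 and Vcam1 the value of CMS25 replicate 3 was the lowest of all 9 arrays.

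Between the doses, Ccl2, Cxcl10, Cxcl16 and Icam1 were higher at CMS50 than at CMS25 and 0 members were lower by their brightest probe set, while 30.3% of all genes were called, 20.8% higher and 9.43% lower. Changes were 1.5 for Ccl2 (SE 0.24, adjusted p = 0.00331), 1.51 for Icam1 (SE 0.15, adjusted p = 0.000943), 0.92 for Cxcl16 (SE 0.16, adjusted p = 0.00437) and 0.80 for Cxcl10 (SE 0.18, adjusted p = 0.0121). These 4 genes also had CMS50 arrays wholly above CMS25, as 30.4% of all genes did. This comparison shares its CMS50 arrays with the one against vehicle, so the 2 sets of values are not independent. Ccl2 is counted here although it passed the minimum only through those arrays. Cxcl12 differed by -0.44 (95% interval -0.97 to 0.09, adjusted p = 0.183), although its dimmer probe set 1387655_at, tested on its own, was lower by the test (-0.65, SE 0.20, adjusted p = 0.0404), the only 1 of its 3 probe sets to be called. Cx3cl1 differed by 0.39 (-0.11 to 0.89, adjusted p = 0.205). Vcam1 differed by 0.64 (-0.06 to 1.33, adjusted p = 0.142), was called at 0.96 without CMS25 replicate 1 (adjusted p = 0.0315) and stood at 0.24 without CMS25 replicate 3 (adjusted p = 0.402). Cxcl1, with no intensity minimum, was 1.25 higher (SE 0.28, adjusted p = 0.0132), where 22.4% of 14217 genes were called, 15.3% higher and 7.05% lower, and it was 0.86 higher without CMS50 replicate 2.

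The receptors and integrins that read these signals were mostly dim or did not pass the test, apart from some integrin genes. Of 20 listed chemokine receptors, 15 had a probe set of their own and 5 passed the intensity minimum, and 0 of those 5 were called by limma in any comparison (0 at an unadjusted p under 0.05 in each). Cxcr4, the receptor of Cxcl12, changed by 0.22 (SE 0.14, adjusted p = 0.252) and Cx3cr1 by 0.15 (SE 0.10, adjusted p = 0.309). Ccr2, Cxcr2 and Cxcr3 had means of 3.01, 3.59 and 4.70 over the 9 arrays and did not pass, and Cxcr6 had no probe set of its own. In the fit with no minimum there were 36 dim genes over all the pathway lists. Of these, 3 were called higher and 2 lower at CMS50, all named here after their values were seen. In that fit 14.6% of 14217 genes were called higher and 8.17% lower. Those shares include the 10337 genes above the minimum, and the share among dim genes alone was not computed. The counts are therefore not read as more or less than background. Ccr1, a receptor of other CC chemokines, was higher by 1.31 (SE 0.17, adjusted p = 0.00211), the pattern receptor Tlr4 by 0.83 (0.0137) and the TNF receptor Tnfrsf1b by 0.46 (0.0492), while the ligands Ccl9 and Ccl24 were lower (-0.66, adjusted p = 0.0255, and -0.69, 0.015). At such levels, with Ccr1 at a mean of 3.52 in vehicle and 4.83 at CMS50, sizes are approximate. Of 11 genes of leukocyte integrins and their activators, 7 passed, 4 rose and 0 fell at CMS50, with a median change of 0.49. Among all genes tested there, 19.6% were called higher and 11.4% lower. Itgal, the alpha chain of LFA-1 that binds Icam1, rose by 0.84 (SE 0.11, adjusted p = 0.00219), from 6.10 to 6.37 in the vehicle arrays to 6.95 to 7.27. Its beta chain Itgb2 changed by 0.14 (SE 0.15, adjusted p = 0.531). Itgb1, the widely expressed beta chain of VLA-4, rose by 0.54, the integrin activator Fermt3 by 0.63 and talin (Tln1) by 0.39. Itgam, the alpha chain of Mac-1, had a mean of 3.47 and did not pass, and Itga4 had no probe set of its own. Of the 7, 2 were called without vehicle replicate 2 or without CMS50 replicate 2. Fermt3 lost its call without vehicle replicate 1 or 2 or CMS50 replicate 2 (largest adjusted p = 0.0823) and Tln1 without vehicle replicate 2 or CMS50 replicate 2 (0.067).

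Of 31 further chemokines and leukocyte growth factors, 16 passed the minimum, 4 rose and 1 fell at CMS50, with a median of 0.08. These counts are near the background of 19.6% higher and 11.4% lower among all genes. Ccl6, a CC chemokine of rodents, rose by 1.97 (SE 0.28, adjusted p = 0.00251), with vehicle arrays from 6.91 to 7.36 and CMS50 arrays from 8.64 to 9.74. Il34, a ligand of the macrophage growth factor receptor, rose by 1.21 (SE 0.16), Cxcl11, which like Cxcl10 binds CXCR3, by 1.33 (SE 0.39, adjusted p = 0.0306) and Ccl21, a lymphoid homing chemokine, by 0.84 (SE 0.26, adjusted p = 0.0379). Ccl27 fell by 0.42. Cxcl11 was at 0.81 without CMS50 replicate 1 and lost its call without vehicle replicate 2 or 3 (largest adjusted p = 0.0951), and Ccl21 lost it without vehicle replicate 1 or 2 or any 1 CMS50 array (largest adjusted p = 0.122). Ccl27 lost its call without vehicle replicate 1 or 3 or CMS50 replicate 1 (largest adjusted p = 0.0699). The number of rises was 2 without vehicle replicate 2. Against CMS25, Ccl6 was higher by 1.71, Ccl21 by 1.2 and Cxcl11 by 1.18 (adjusted p = 0.00361, 0.0105 and 0.0469), and Csf1, a macrophage growth factor, fell by 0.49 (adjusted p = 0.0127). Between the doses this list had 4 rises and 1 fall among the 16, where 20.8% of all genes tested were called higher and 9.43% lower. These differences were not recomputed without single arrays.

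Of 21 further adhesion molecules, 12 passed, 5 rose and 1 fell at CMS50, with a median of 0.26. The shares over all genes were 19.6% higher and 11.4% lower. Cd44, the hyaluronan receptor, rose by 1.67 (SE 0.23, adjusted p = 0.00244), Mcam by 0.91, and the junctional proteins Cd99, Jam3 and F11r by 0.72, 0.50 and 0.50, while Alcam fell by 0.40. The endothelial adhesion molecules Icam2 and Pecam1 changed by 0.02 and -0.02 (adjusted p = 0.924 and 0.937), and the selectins Sele and Selp had means of 2.93 and 3.74 and did not pass. The rises numbered 3 without vehicle replicate 2 or CMS50 replicate 1. The call of Jam3 was lost without vehicle replicate 2 or 3 or CMS50 replicate 1 or 2 (largest adjusted p = 0.0838), that of F11r without vehicle replicate 1 or 2 or CMS50 replicate 1 (0.0556), and that of Alcam without vehicle replicate 1 or 3 or CMS50 replicate 1 or 2 (0.0676). Averaged over their probe sets, Mcam and Cd99 were at 0.57 and 0.33.

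For the 2 lists that follow, the shares over all genes tested were 19.6% higher and 11.4% lower. Among 9 genes of chemokine shedding and proteolysis, 7 passed, 3 rose and 0 fell at CMS50, with a median of 0.19. Timp1, which inhibits metalloproteinases, rose by 3.07 (SE 0.28, adjusted p = 0.000697), Mmp2, a gelatinase that can cleave Cxcl12 and Ccl7, by 1.57 (0.71 over its probe sets), and Rhbdf2, a regulator of the sheddase ADAM17, by 0.78. The sheddases themselves changed by -0.33 for Adam10 (adjusted p = 0.106) and 0.19 for Adam17 (adjusted p = 0.217) against vehicle. Between CMS50 and CMS25 both were called, Adam10 at -0.43 (adjusted p = 0.0498) and Adam17 at 0.37 (adjusted p = 0.0291). In that comparison 20.8% of all genes tested were called higher and 9.43% lower. Those 2 differences of Adam10 and Adam17 were not recomputed without single arrays. Of 27 genes of signals that induce these chemokines, NF-kB inhibitors included, 19 passed, 14 rose and 0 fell, with a median of 0.59. Tlr2, 1 of the 14, had means of 4.76 in vehicle and 4.95 at CMS25. It passed the minimum only through its CMS50 arrays, so its rise is not evidence of a change. Nfkbiz, an atypical regulator of NF-kB, rose by 2.43 (1.08 over its probe sets), Fos, an AP-1 subunit, by 1.65 (0.77 over its probe sets), the interferon-response factor Irf1 by 1.42 and the TNF receptor Tnfrsf1a by 1.21. The interleukin receptor Il1r1 rose by 0.96 and the NF-kB inhibitor Tnfaip3 by 0.93. Nfkbia, also an NF-kB inhibitor, changed by 0.01 (adjusted p = 0.976). The cytokines Tnf, Il1a, Il6 and Ifng had means of 4.74, 3.57, 3.03 and 2.58 and did not pass, and Il1b changed by 0.19 (adjusted p = 0.537). Il1r1 lost its call without any 1 vehicle array or CMS50 replicate 1 or 2 (largest adjusted p = 0.0941). The count of rises fell to 9 without vehicle replicate 1 and to 8 without CMS50 replicate 1 or 2.

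**Figure D3:**
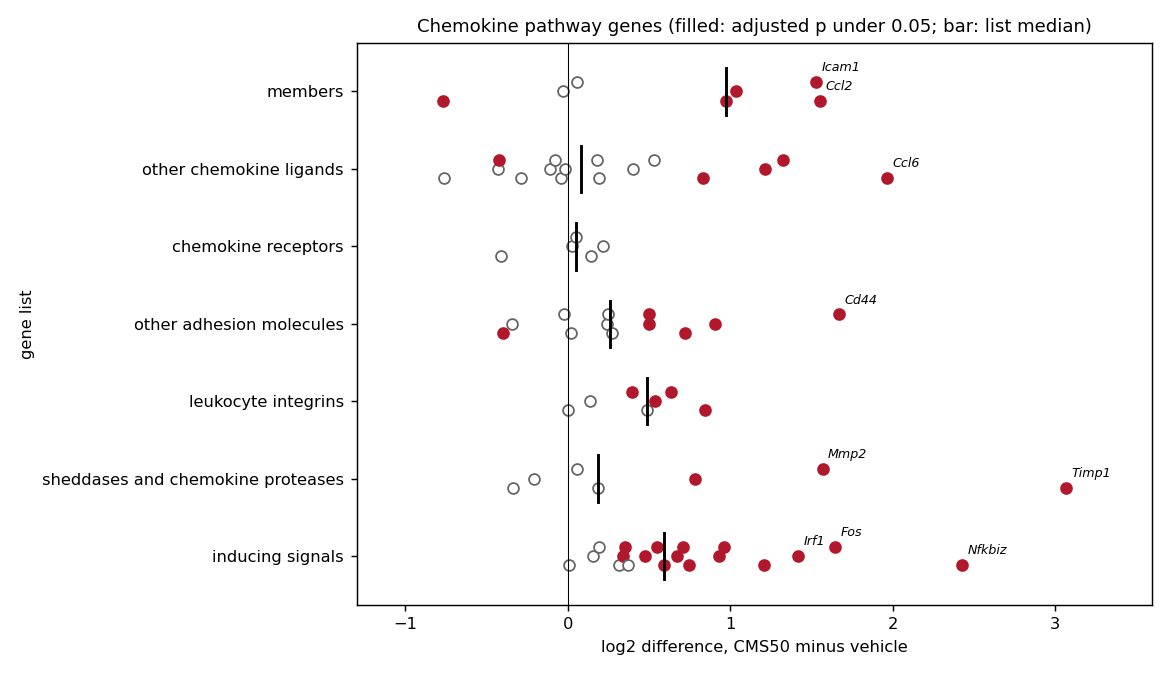
Log2 difference between CMS50 and vehicle for every gene that passed the intensity minimum, by list; filled points had an adjusted p under 0.05 and black bars mark list medians. The members' median, with Ccl2 included, lies at 0.97 and that of the receptors at 0.05. Timp1 (3.07) and Nfkbiz (2.43) lie farthest to the right.

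Cell type markers moved beside the members, in a comparison in which 19.6% of all genes tested were called higher and 11.4% lower. Some genes passed the minimum only through their CMS50 arrays and so had to differ. They were Mrc1 among macrophage, Cd3e among T cell and Havcr1 among injured tubule markers, and Tlr2 among the pathway genes. The pathway gene Ccl3, which was not called, also had a vehicle mean under 5. Of 14 macrophage and monocyte markers, 12 passed, Mrc1 included, all 12 of which rose at CMS50 (median 1.45). The log2 of their summed intensity ran from 11.69 to 11.75 in vehicle, 11.39 to 12.01 at CMS25 and 12.97 to 13.72 at CMS50. All such sums were taken on the linear scale, so the brightest genes weigh most. Here that was Lyz2, with means of 11.39 in vehicle and 12.99 at CMS50. Fibroblast and pericyte markers, with 5 rises among 7 that passed, ran from 10.79 to 10.97 in vehicle and 11.69 to 12.76 at CMS50, although 1 gene was called without vehicle replicate 2 or 3 and 2 without vehicle replicate 1 or CMS50 replicate 1 or 2. Injured tubule markers, with 6 rises among 9, ran from 12.56 to 13.19 and 14.87 to 15.49. Endothelial markers, with 1 rise and 2 falls among 10, ran from 11.60 to 11.63 and 11.35 to 11.52. Proximal tubule markers, with 1 rise and 3 falls among 9, ran from 15.77 to 15.89 and 15.43 to 15.75. Of 12 T and NK cell markers 2 passed, and their sum ran from 6.54 to 6.77 and 6.93 to 7.17. Below the minimum and so not tested, Cd3d (means of 3.77 in vehicle and 4.64 at CMS50), Cd3g (4.66 and 5.33) and Cd8b (4.24 and 4.44) had CMS50 arrays wholly above vehicle. For Cd8b the gap was narrow, from 4.36 in the highest vehicle array to 4.38 in the lowest CMS50 array. The other dim ones overlapped vehicle, Cd4 and Cd8a among them, with means of 4.56 and 4.16 over the 9 arrays. Among all genes tested, 30.6% had CMS50 arrays wholly above vehicle, so these 3 are not read as a T cell result. Of 8 neutrophil markers, 5 had a probe set and 0 passed, S100a8 and S100a9 having means of 2.92 and 3.83, and 1 of 5 B cell markers passed. The part of these cell types in the changes of the chemokines and of Icam1 was not tested.

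**Figure D4:**
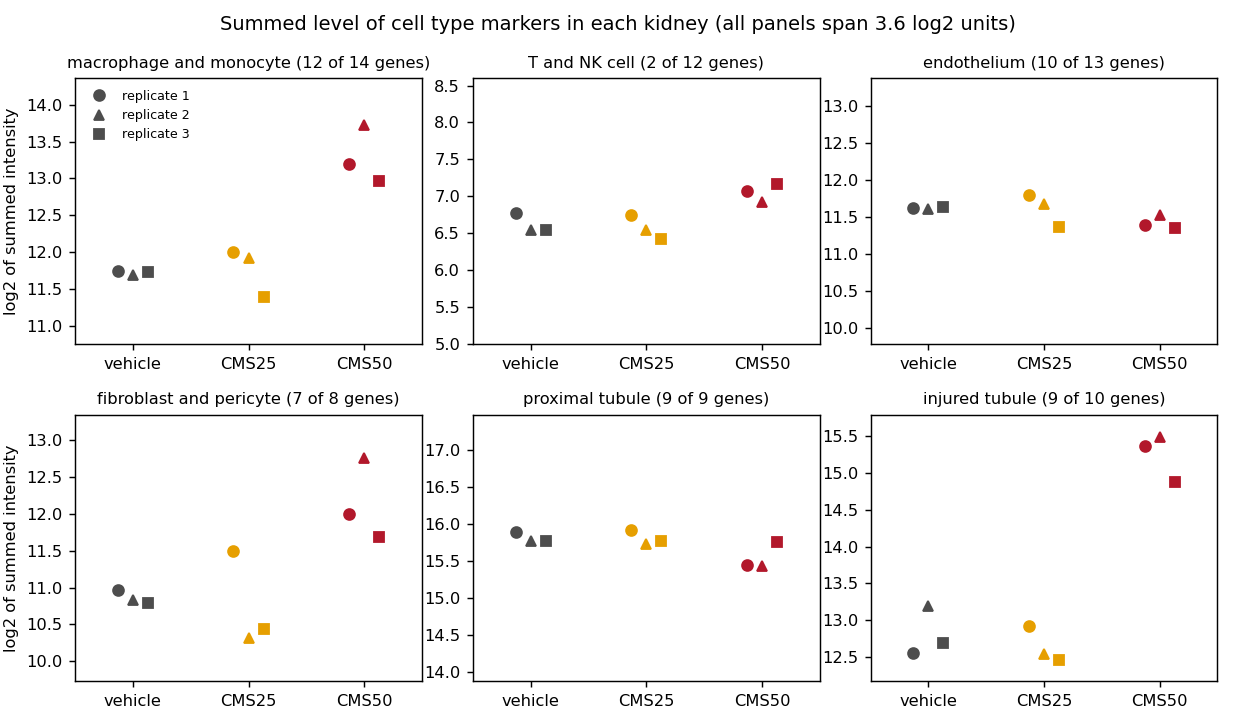
Log2 of the summed intensity of the markers of 6 cell types in each kidney, by dose and replicate. The macrophage, T and NK cell, fibroblast and injured tubule sums of the 3 CMS50 arrays lie above those of all other arrays. The CMS50 endothelial sums (11.35 to 11.52) lie below the vehicle sums (11.60 to 11.63) but overlap those of CMS25 (11.36 to 11.80). The CMS50 proximal tubule sums (15.43 to 15.75) likewise lie below vehicle (15.77 to 15.89) and overlap CMS25 (15.73 to 15.92).

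The genes whose profile over the 9 arrays was most like that of each member were read from Pearson's r against 10330 other genes, as a description of arrays that share the 3 doses. They were Myd88 and Stim2 for Ccl2 (both r = 0.99), Ankmy2 and Capn5 for Cxcl10 (0.995 and 0.973), Irgm2 and Card10 for Cxcl16 (0.992 and 0.982), and Nono and Rab13 for Icam1 (0.992 and 0.99). For Cxcl12 they were Gmpr2 and Acyp2 (0.987 and 0.962). For the members that were not called they were Atpaf2 and Atg10 for Cx3cl1 (0.934 and 0.93) and Mef2a and Tmcc3 for Vcam1 (0.949 and 0.943).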

How the data were processed

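Log2 intensities of 31099 probe sets on 9 arrays were used as deposited. The submitters' processing notes name Affymetrix Expression Console and RMA as the tools with which the authors made the deposited log2 values; their versions are not given in the sources used here. The RMA method corrects background, equalises array distributions and summarises probes, so a shift of all genes cannot be seen and changes of dim probe sets are compressed. There were 0 missing values. Names came from the platform annotation, updated through gene identifiers to the GRCr8 gene table (0 symbols changed). Without control probes 31042 probe sets remained: 20826 list 1 gene, 436 list several, and for 9780 no gene is listed. Positions refer only to the RefSeq promoter windows.

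For each gene the brightest probe set was tested where its mean over the 9 arrays was at least 5. A single limma model (lmFit and eBayes, version 3.58.1, R 4.3.3) covered the 3 doses, with Benjamini-Hochberg adjustment across every gene tested, and intervals are 95% intervals of the fit. The fit was tested on simulated data. Members, lists and tests were chosen with earlier results of these data known. Named pathway genes were up to 6 of the largest called changes per list at CMS50 against vehicle, plus the members' receptors and integrins. Between the doses the 3 largest were named only for the further chemokines, together with Csf1. Other pathway genes called between the doses are not named, apart from Adam10 and Adam17. Other genes named for a mean or for a missed test, such as the inducing cytokines, selectins and sheddases, were chosen after their values were seen, as were the motifs. Alternatives changed the minimum, the probe set rule, scaling, variance model, weights, groups fitted and replicate block, and left out each array. The labels give no batch. Plots used matplotlib 3.10.9 (Python 3.11.15). The number of arrays limits the precision.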

Additional observations from a re-analysis of the deposited data

How the results depend on the processing

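The changes of Ccl2, Cxcl10, Cxcl16 and Icam1 at CMS50, against vehicle and against CMS25, kept their direction and their side of the threshold in all alternatives in which they were tested (17 for Ccl2 and Cxcl10, 18 for Cxcl16 and Icam1), with changes against vehicle from 1.44 to 1.72, 0.85 to 1.18, 0.81 to 1.07 and 1.45 to 1.62. Cxcl12 against vehicle stayed negative (-0.95 to -0.54) but lost its call in 6 of 18. Those were the 5 leave-outs given above and the replicate block (adjusted p = 0.0653). The labels do not say whether same-numbered rats were paired. Correlations of same-numbered deviations from the group means ran from -0.18 to 0.26, which cannot settle it with 3 arrays per dose. With the block 2865 genes and 4 members were called at CMS50 against vehicle, 2857 and 4 between the doses, and 0 and 0 at CMS25. A minimum mean of 6, which leaves 5 members, gave 3 called members against vehicle and 2 against CMS25, since Ccl2 and Cxcl10 are too dim to be tested there. Leave-outs kept the probe sets and genes of the whole set. They gave 1687 to 3546 called genes and 4 to 5 called members at CMS50 against vehicle, 1569 to 3518 and 4 to 5 against CMS25, and 0 to 0 of both at CMS25. At CMS50 against vehicle leaving out vehicle replicate 2 gave 1852 genes, and leaving out CMS50 replicate 1 or 2 gave 1711 or 1687, against 3211 in all. Against CMS25 the counts were 2008, 1737 and 1569 without CMS25 replicate 3, CMS50 replicate 1 and CMS50 replicate 2, against 3128. Cyclic loess scaling moved the share of higher calls between the doses from 68.8% (2153 of 3128) to 58.7% (1744 of 2971) and no member's call. Signs turned only for changes near 0 that were not called. Cx3cl1 at CMS50 was 0.0098 with array weights and ran from -0.17 to 0.14 in leave-outs, Vcam1 from -0.064 to 0.18, and Ccl7 with no minimum from -0.16 to 0.028. At CMS25 Ccl2 ran from -0.12 to 0.30, Cxcl16 from -0.028 to 0.15 and Icam1 from -0.10 to 0.14. The settings for Ccl7, Cxcl1 and the pathway genes were added after the data were seen. Signal near background limits Ccl7, Cxcl1 and most receptors, for which a missed difference says little.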
